A study of Rattus norvegicus with 6 samples.

Results

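The genes described here are 10 anion channels, exchangers and channel regulators that serve the secretion of chloride and bicarbonate by duct epithelium, out of 15677 genes listed for the series. They are Cftr, Slc26a9, Slc26a6, Slc26a3, Clca1, Clca5, Ano1, Slc4a4, Slc4a2 and Slc12a2. Slc26a9 and Clca1 entered the group because their values separate the genotypes, so their differences are given as descriptions without a test. The other 8 genes were named by function, and each of the 10 has 1 row in every library table.

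The series measured RNA of pancreatic duct glands, mucin-rich pouches that open into the larger ducts of the pancreas. Glands were picked by their morphology and cut out by laser capture from wild-type (WT) Sprague-Dawley rats and from HIP rats at a pre-diabetic stage. The HIP rat serves to model type 2 diabetes: a transgene active in beta cells makes the human form of islet amyloid polypeptide. Each genotype gave 3 libraries, WT26, WT1 and WT4 for the WT and HIP30, HIP2 and HIP3 for the HIP rats, named by genotype and the number in their titles. The labels give neither the age of the rats nor whether a library holds 1 animal or a pool, so a p-value here reflects only how much these libraries vary, which could be technical.

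Duct cells secrete a fluid rich in bicarbonate. At the luminal membrane, the cyclic AMP-gated chloride channel CFTR works beside SLC26 exchangers, which trade luminal chloride for bicarbonate, and beside the calcium-gated chloride channel encoded by Ano1. At the opposite, blood-facing membrane, sodium-bicarbonate cotransport (Slc4a4), chloride-bicarbonate exchange (Slc4a2) and sodium-potassium-chloride cotransport (Slc12a2) load the cell with the ions that leave through the lumen. The CLCA proteins are metalloprotease-like, and that of Clca1, secreted by mucous epithelia, is known to raise the current of the channel that Ano1 encodes.

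Each library held 15141136 to 17574682 reads on listed genes, and levels are given in CPM, counts relative to library size after TMM factors of 0.933 to 1.09, which offset differences in composition. Duct markers were high throughout. Of 14 duct markers chosen, 12 had a row, with Krt7 and Sox9 lacking one, and these 12 had reads in every library. Their summed level ran from 13470 to 31690 CPM in WT and from 13400 to 16350 CPM in HIP. Markers of islet cells summed to 11400 CPM in WT4 and 5080 CPM in HIP3 against at most 390.3 CPM in the other libraries, and acinar markers to 93.3 and 138 CPM against at most 44.6 CPM. WT26 and HIP30 had no read for 24 and 46 genes that stood at 5 CPM or more in both other libraries of their group, where the other libraries had none of the kind. In such bulk samples, fewer cells of a type and less RNA per cell cannot be told apart.

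The comparison asks whether transcripts of the glands differ in rats whose beta cells are stressed, and nothing in the group passed the test over all genes. The test was limma with Benjamini-Hochberg adjustment over 12102 genes on log2(CPM + 0.1215), where the added amount is 2 reads of an average library, and the share of all genes with an adjusted p under 0.05 was 0%. Of the 10 genes, 9 had the reads to be fitted and 7 of these were tested, of which 0 passed and 1, Cftr, had an unadjusted p under 0.05, against 6.54% of all genes. limma-voom on the recovered reads also gave 0 genes with an adjusted p under 0.05. The 7 differences split into 4 positive and 3 negative, and their median log2 difference was 0.01, the same to 2 decimals as the median of 0.01 over all genes tested. Every HIP library stood above every WT library for Clca5 among the 7 tested genes, against 5.27% of all genes, and below for 0 of them, against 4.26% of all genes.

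**Figure D1:**
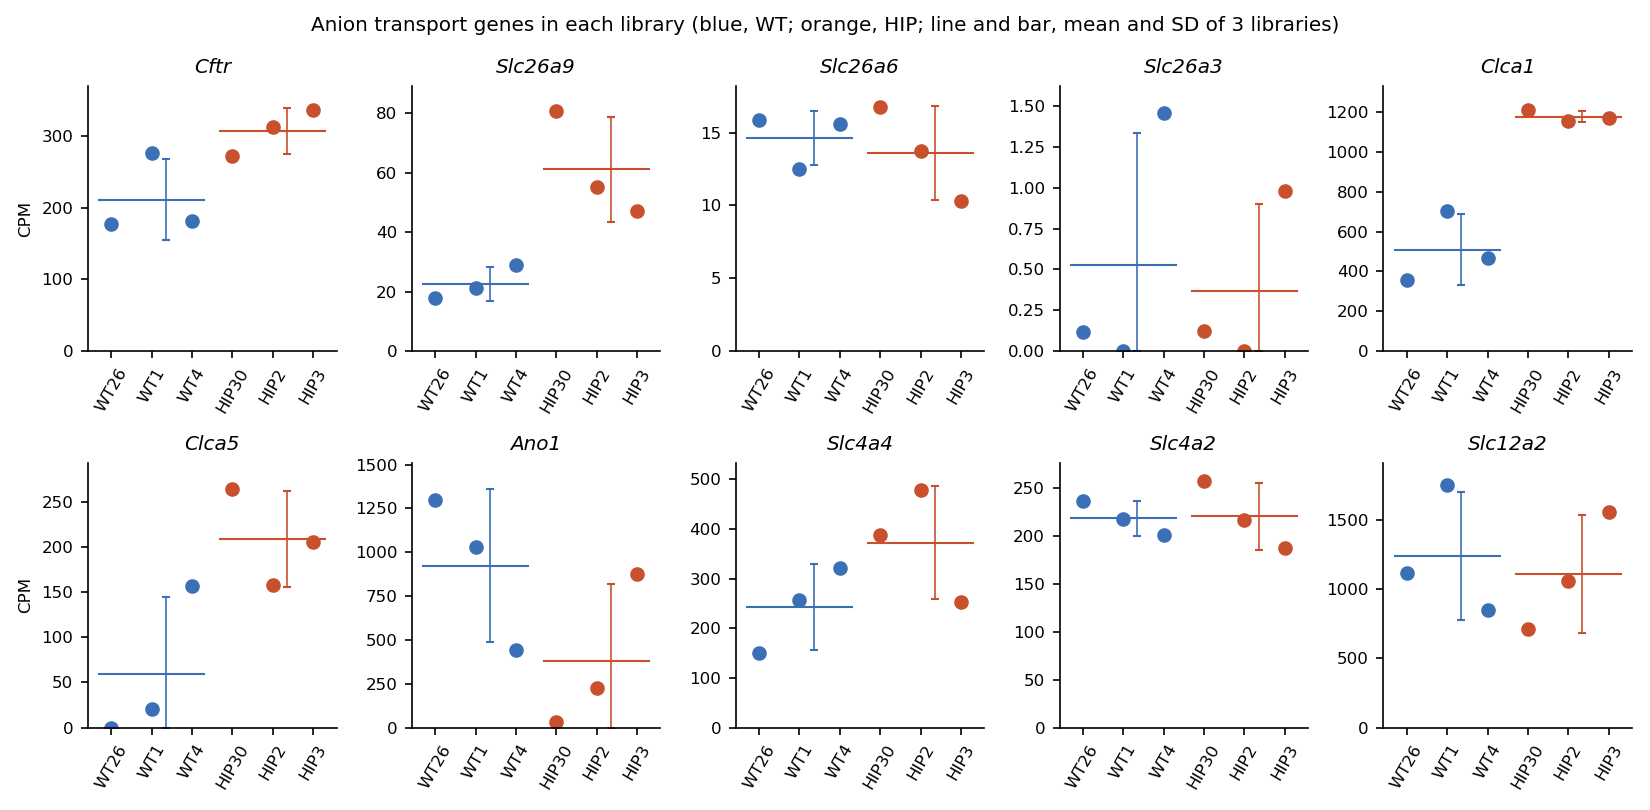
Level in CPM (y axis, from 0) of each of the 10 genes in the 6 libraries (x axis), with the mean and SD of 3 libraries per genotype as line and bar, cut at 0. Slc26a9 and Clca1, which were picked for this contrast, and Clca5 have all HIP points above all WT points, while the WT and HIP points of the other 7 genes overlap.

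Promoters are shown for 4 genes on which the values below turn. These are Slc26a9 and Clca1, higher in every HIP library, and Cftr and Ano1, the cyclic AMP-gated and the calcium-gated channel. Each runs from 250 bases before to 50 bases after the start site in RefSeq's table for GRCr8, 5′ to 3′ on the strand of the gene, at chr13:45729833-45730132 (+) for Slc26a9, chr2:236624665-236624964 (-) for Clca1, chr4:47527379-47527678 (+) for Cftr and chr1:209329289-209329588 (-) for Ano1. The table held 9 of the 10 genes, and for Cftr its start lies inside the annotated span of the gene. Capitals mark matches on either strand to the TATA box TATAAA, the CCAAT box CCAAT, the GC box GGGCGG, the cyclic AMP response half-site TGACG or the forkhead motif TGTTTAC.
Slc26a9: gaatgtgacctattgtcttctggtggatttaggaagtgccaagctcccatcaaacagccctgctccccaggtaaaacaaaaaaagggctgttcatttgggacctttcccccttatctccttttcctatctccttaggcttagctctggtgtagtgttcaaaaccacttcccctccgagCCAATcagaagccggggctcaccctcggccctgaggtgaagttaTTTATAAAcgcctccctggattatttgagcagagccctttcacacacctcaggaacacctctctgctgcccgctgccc
Clca1: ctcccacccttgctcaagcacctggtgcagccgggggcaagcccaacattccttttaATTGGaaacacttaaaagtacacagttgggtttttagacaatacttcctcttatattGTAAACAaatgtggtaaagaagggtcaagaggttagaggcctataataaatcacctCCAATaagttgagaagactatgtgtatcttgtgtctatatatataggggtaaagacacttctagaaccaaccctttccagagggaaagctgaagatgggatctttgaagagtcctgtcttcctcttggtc
Cftr: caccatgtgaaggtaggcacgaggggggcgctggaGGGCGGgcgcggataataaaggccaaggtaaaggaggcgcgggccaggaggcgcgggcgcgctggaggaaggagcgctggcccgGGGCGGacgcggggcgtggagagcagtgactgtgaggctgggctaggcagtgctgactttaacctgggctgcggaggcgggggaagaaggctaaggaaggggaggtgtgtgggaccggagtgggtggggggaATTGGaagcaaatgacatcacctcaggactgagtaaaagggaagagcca
Ano1: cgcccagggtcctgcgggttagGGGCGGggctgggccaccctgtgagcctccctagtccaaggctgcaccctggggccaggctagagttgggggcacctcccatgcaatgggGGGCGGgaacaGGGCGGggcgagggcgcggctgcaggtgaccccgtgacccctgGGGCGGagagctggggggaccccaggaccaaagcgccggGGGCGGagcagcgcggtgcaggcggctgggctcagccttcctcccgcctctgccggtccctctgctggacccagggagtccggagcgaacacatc

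Slc26a9 and Clca1 carry promoters of moderate to low GC content, 51.3% and 42.0%, whereas those of Cftr and Ano1 reach 65.0% and 73.7%, beside a median of 52.3% over 27457 promoters. In Slc26a9, TATAAA starts at -26 from the start site, where its first bases overlap a match on the other strand at -28, and CCAAT starts at -72. TATAAA occurs in 14.3% of all promoters of this length and CCAAT in 37.7%. Clca1 has CCAAT at -80 and, on the other strand, at -193, and the forkhead motif TGTTTAC on the other strand at -136, a motif that 3.76% of promoters hold. Ano1 has 5 copies of GGGCGG, the GC box, and Cftr has 2 and a CCAAT match on the other strand at position 1, with GGGCGG in 34.9% of all promoters. TGACG, part of the cyclic AMP response element, is in 0 of the 9 promoters and in 22.0% of all. These matches are letters in a window and say nothing of which factors bind.

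The apical channels and exchangers did not move as a block. Cftr, the cyclic AMP-gated channel, stood at 177 CPM in WT26, 276.5 in WT1 and 181 in WT4, and at 272 in HIP30, 313 in HIP2 and 337 in the HIP3 library. HIP2 and HIP3 lay above every WT library and HIP30 lay just under WT1, and when reads were scaled to library totals instead the groups no longer overlapped (168.9, 258.0 and 188.1 against 296.0, 318.5 and 328.9 CPM). Means were 211 ± 56.4 CPM in WT and 307 ± 32.5 CPM in HIP (SD, n = 3), a ratio of 1.45. The log2 difference was 0.57 (standard error 0.22) with a 95% interval of 0.06 to 1.07 (limma, unadjusted p = 0.0328, Benjamini-Hochberg adjusted p = 0.691).

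Slc26a9, an epithelial chloride channel and exchanger that is known to interact with CFTR, stood at 17.7 CPM in WT26, 21.3 in WT1 and 28.9 in WT4. In the HIP libraries it stood at 80.8 CPM in HIP30, 55.2 in HIP2 and 47.1 in the HIP3 library. The lowest HIP library exceeded the highest WT library, from 297 to 476 reads in WT and 769 to 1330 in HIP. The mean was 22.6 ± 5.74 CPM in WT and 61.1 ± 17.6 CPM in HIP (SD, n = 3), 2.70 times as high, with a log2 difference of 1.42 and a standard error of 0.29 given without a test. With each library left out in turn the difference ran from 1.202 to 1.608, and without WT26 and HIP30 it was 1.04.

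Relative to Cftr, Slc26a9 stood higher in HIP30 and HIP2 than in any WT library, but not in HIP3. The log2 ratio of Slc26a9 to Cftr within a library, which does not depend on library scaling, was -3.31 in WT26, -3.69 in WT1 and -2.64 in WT4, and -1.75 in HIP30, -2.50 in HIP2 and -2.83 in the HIP3 library. HIP3 lay below WT4, so that the groups overlapped, and the difference was 0.85. The ratio of Clca1 to Cftr did not overlap, at 1.02, 1.35 and 1.36 in WT26, WT1 and WT4 against 2.15, 1.88 and 1.80 across HIP30, HIP2 and HIP3. Both ratios hold a gene picked for the contrast and are not tested.

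Slc26a6 and Slc26a3, the chloride-bicarbonate exchangers of the luminal membrane, overlapped between the genotypes. Slc26a6 stood at 15.9, 12.5 and 15.6 CPM across WT26, WT1 and WT4, then at 16.8, 13.7 and 10.3 CPM across HIP30, HIP2 and HIP3. The highest and the lowest of the 6 values both came from HIP libraries. Its log2 difference was -0.13 (standard error 0.31) with a 95% interval of -0.83 to 0.58 (limma, adjusted p = 0.947), and the sign turned to 0.05 without HIP3.

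Slc26a3 was close to the floor and was not tested. It had 2 reads in WT26, 0 in WT1 and 24 in WT4, and 2 in HIP30, 0 in HIP2 and 16 in HIP3, or up to 1.46 CPM in WT and 0.980 CPM in HIP. In WT1 and HIP2, no read still leaves room for 0.184 and 0.183 CPM, taking 3 reads as the limit and covering counting error only. Both libraries with more than 2 reads, WT4 and HIP3, are those with the highest islet and acinar marker sums, and the part of other cells in these reads was not tested. The ratio of Slc26a6 to Cftr had a difference of -0.69 on the log2 scale (exact two-sided permutation test over libraries, p = 0.2, 0.4 after Benjamini-Hochberg adjustment over 4 ratios), where 3 against 3 cannot go below 0.1. The ratio of Slc26a3 to Slc26a6, which is among these 4, is not read, since with 0 or 2 reads of Slc26a3 in 4 libraries the added 2 reads set its values.

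Ano1, the calcium-gated chloride channel, ranged more widely within each genotype than its group means lay apart. It stood at 1297 CPM in WT26, 1028 in WT1 and 445 in WT4, and at 31.4 CPM in HIP30, 226 in HIP2 and 878 in the HIP3 library. HIP30 and HIP2 lay below every WT library, while HIP3 lay inside the WT range. The means of 923 ± 435 and 378 ± 443 CPM (SD, n = 3) gave a log2 difference of -2.19 (standard error 1.05) with a 95% interval of -4.62 to 0.24 (limma, adjusted p = 0.691). Without HIP3 the difference was -3.32 and without HIP30 it was -0.91, and without both WT26 and HIP30 it was -0.60, so that its size rests on these libraries.

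**Figure D2:**
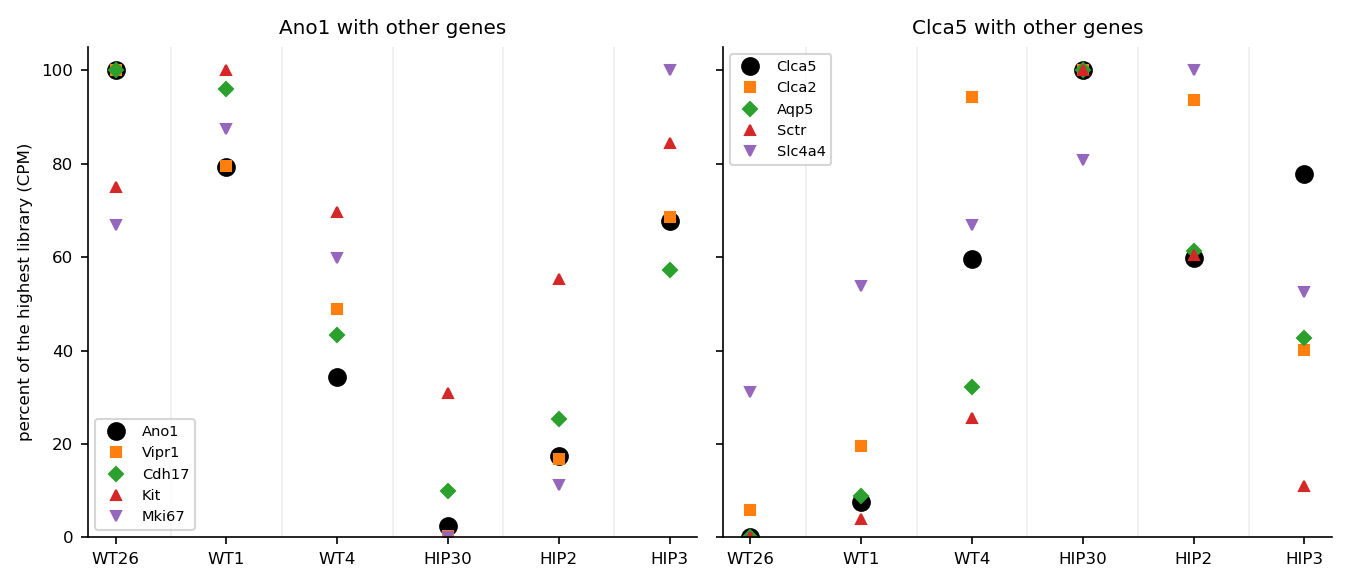
Levels of Ano1 (left) and Clca5 (right) with 4 other genes each, chosen after their values were seen, in every library (x axis) as percent of the gene's highest library (y axis, CPM scale). Ano1, Vipr1, Cdh17, Kit and Mki67 are lowest in HIP30 and next lowest in HIP2, while Clca5, Aqp5, Clca2, Sctr and Slc4a4 are lowest in WT26 and, apart from Slc4a4, highest in HIP30.

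Several genes of other kinds were low in the same 2 HIP libraries as Ano1. Kit and Etv1, which with Ano1 mark interstitial cells of Cajal, stood at 43.8 and 21.2 CPM in HIP30 and at 120 and 250 CPM in HIP3, with WT ranges of 98.97 to 142 and 100 to 301 CPM. The markers of dividing cells summed to 98.7 CPM in HIP30 and 466 CPM in HIP2, with 6 of 10 at 0 reads in HIP30, against 2693 CPM in HIP3 and 1886 to 2971 CPM in WT. Their part in the Ano1 values was not tested. Cdh17, an intestinal-type cadherin, followed the same order with 153 CPM in HIP30, 392 in HIP2, 889 in HIP3 and 674 to 1552 in WT, as did Vipr1, a receptor for vasoactive intestinal peptide, with 0.182, 11.6, 47.2 and 33.6 to 68.7 CPM.

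Clca1 and Clca5 gave the largest positive differences together with Slc26a9. Clca1 stood at 358 CPM in WT26, 704 in WT1 and 465 in WT4, and at 1212 CPM in HIP30, 1154 in HIP2 and 1170 in the HIP3 library. The 3 HIP libraries lay close together and all lay above the WT libraries. Its mean was 509 ± 177 CPM in WT and 1178 ± 30 CPM in HIP (SD, n = 3), 2.31 times, and the log2 difference of 1.27 (standard error 0.27), given without a test, ran from 1.04 to 1.52 with each library left out in turn.

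Clca1 is a known product of goblet and mucous cells, whose other markers varied between the libraries. Of 20 goblet and mucous markers chosen, 12 had a row, and Muc2, Muc5ac, Muc5b and Muc6 were among those without one. Among the 12 tested, 9 differences were positive and 3 negative with a median of 0.71 (0.44 without HIP30), and 0 passed the adjusted test. Unadjusted, 4 positive and 1 negative markers had a p under 0.05, against 6.54% of all genes. Their summed level overlapped, with 2525 to 5418 CPM in WT and 3614 to 4296 CPM in HIP. Creb3l1, a transcription factor of secretory cells, stood at 36.4, 62.4 and 102 CPM across WT26, WT1 and WT4, then at 168, 144.5 and 100.1 CPM across HIP30, HIP2 and HIP3. Agr3, a disulfide isomerase of mucous cells, stood at 1.67, 4.79 and 6.32 against 35.7, 20.9 and 5.70 CPM. In both, HIP3 lay just below WT4. The 3 negative markers were Tff1, Klf4 and Fcgbp, with log2 differences of -4.39, -0.87 and -0.38, of which Klf4 had the unadjusted p under 0.05. Fcgbp alone made up 3265 of the 5418 CPM summed in WT26. The part of mucous cell content in the Clca1 values was not tested.

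Clca5 ranged from no reads to 4334 reads. It had 0 reads in WT26, which allows up to 0.179 CPM by counting error only, and stood at 20.2 CPM in WT1 and 157 in WT4, and at 263 CPM in HIP30, 158 in HIP2 and 205 in the HIP3 library. Clca5 is thus 1 of the 24 genes without a read in WT26 that stood at 5 CPM or more in WT1 and WT4, as are Aqp5, Sctr and Kcnma1. Whether the missing reads reflect the glands or that library was not tested. The groups were apart by the narrow step from 156.8 CPM in WT4 to 157.6 CPM in HIP2, and overlapped when reads were scaled to library totals. The log2 difference of 4.81 had a standard error of 2.19 and a 95% interval of -0.24 to 9.86 (limma, adjusted p = 0.691), and it depends on WT26, without which it was 1.85, and on WT4, without which it was 7.02. Means were 59.0 ± 85.3 and 209 ± 53.0 CPM (SD, n = 3).

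The CLCA genes lie together. In the GRCr8 annotation, 5 CLCA genes stand side by side on chromosome 2 in the order Clca5, Clca4l, Clca4, Clca1 and Clca2, with no other protein-coding gene between them, and all 5 symbols are in the files. Older names overlap, since Clca5 is also a synonym of the current Clca2, and Clca2 and Clca4 are synonyms of the current Clca5. The rows named Clca5, Clca2 and Clca4 in these tables, which were made on build rn5, may thus not be the genes that carry these names today, and the order applies to the symbols. Reads that match several CLCA genes could have been lost or split, and this could not be checked here.

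The 5 CLCA rows did not share a pattern. Clca2 stood at 58.1, 194 and 940.0 CPM across WT26, WT1 and WT4, then at 997, 933 and 400.5 CPM across HIP30, HIP2 and HIP3, a log2 difference of 1.71 (standard error 0.89; limma, adjusted p = 0.691). Like Clca5 it was lowest in WT26 and next lowest in WT1, but HIP3 lay below WT4. Clca4 had a negative difference of -0.66 and Clca4l a positive one of 0.85 (limma, adjusted p = 0.723 and 0.76). Summed over the 5 genes, CLCA transcripts reached 568.5, 1103 and 1699 CPM in WT against 2620.0, 2408 and 1833 CPM in HIP. Without Clca1, which was picked for this contrast, the sums were 210.0, 398.9 and 1234 CPM in WT against 1408, 1254 and 663.6 CPM in HIP, and HIP3 lay below WT4. Clca1 made up 27.4% to 63.8% of the sum in WT and 46.2% to 63.8% in HIP.

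**Figure D3:**
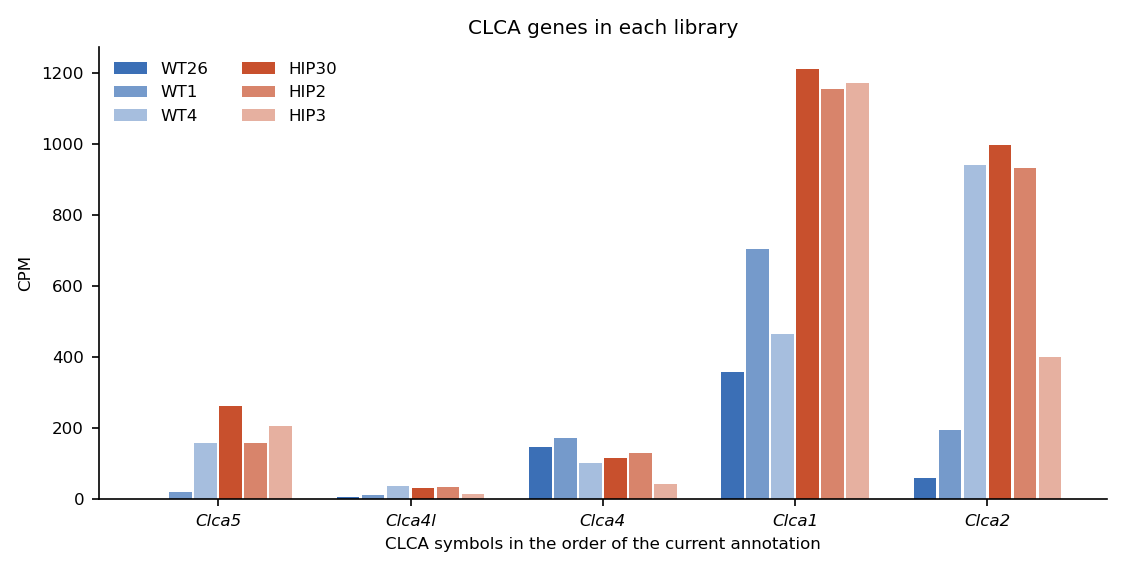
Level in CPM (y axis, from 0) of the 5 CLCA rows, with symbols in the order of the GRCr8 annotation (x axis) and 1 bar per library. The HIP bars of Clca1 stand between 1154 and 1212 CPM, Clca4 has its lowest bar in HIP3, and the bar of Clca2 in WT4 lies between those of HIP30 and HIP2.

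The basolateral loaders showed no difference beyond the spread between libraries. Slc4a4, the sodium-bicarbonate cotransporter, stood at 149.6, 257.5 and 321 CPM across WT26, WT1 and WT4, then at 387, 479 and 252 CPM across HIP30, HIP2 and HIP3. HIP3 lay below WT1 and WT4, so the groups overlapped. The means of 243 ± 86.7 and 373 ± 114 CPM (SD, n = 3) gave a log2 difference of 0.64 (standard error 0.34) with a 95% interval of -0.14 to 1.42 (limma, adjusted p = 0.691), which was 0.33 without WT26.

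Slc4a2, the chloride-bicarbonate exchanger of this membrane, had the closest means of the 10 genes. It stood at 236, 217.5 and 200.4 CPM across WT26, WT1 and WT4, then at 257, 217 and 188 CPM across HIP30, HIP2 and HIP3. The log2 difference of 0.01 had a standard error of 0.18 and a 95% interval of -0.41 to 0.42 (limma, adjusted p = 0.992), and was negative without WT1, without WT4 or without HIP30. Slc12a2, the cotransporter that brings in chloride, stood at 1117, 1755 and 853 CPM against 710.4, 1063 and 1562 CPM in the same order of libraries. Its lowest and its second highest value both came from HIP, the log2 difference was -0.17 (standard error 0.37) with a 95% interval of -1.03 to 0.69 (limma, adjusted p = 0.947), and the sign turned without WT1 or HIP30.

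Ratios between the loaders were no more uniform within a genotype. Slc4a4 relative to Slc4a2 had a log2 ratio of -0.66, 0.24 and 0.68 across WT26, WT1 and WT4 and of 0.59, 1.15 and 0.43 across HIP30, HIP2 and HIP3, a difference of 0.63 (exact two-sided permutation test, p = 0.3, adjusted 0.4). Slc12a2 relative to Slc4a4 had ratios of 2.90, 2.77 and 1.41 against 0.87, 1.15 and 2.63, a difference of -0.81 (exact, p = 0.2, adjusted 0.4). HIP3 lay inside the WT range of both ratios, and HIP30 inside that of the first.

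**Figure D4:**
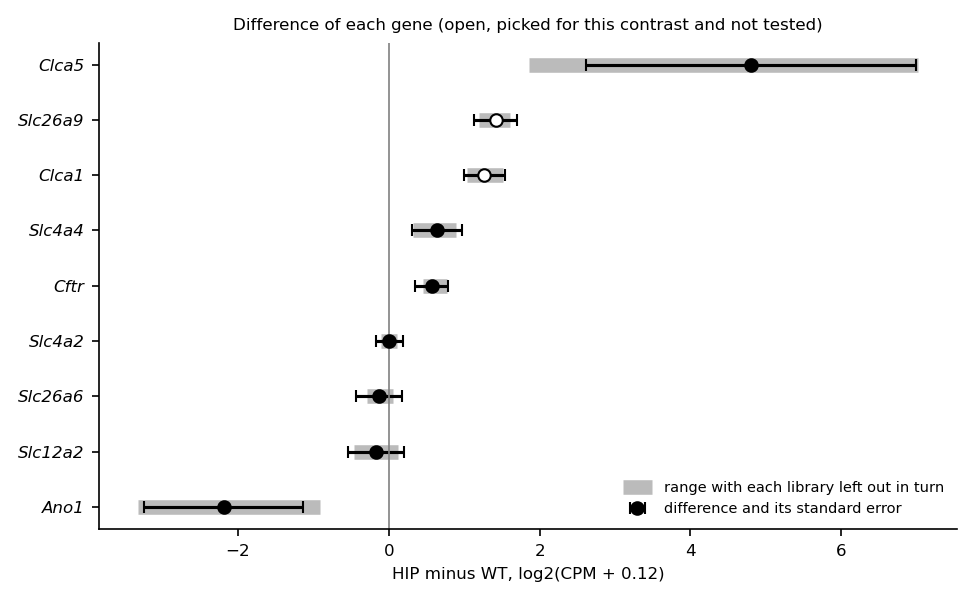
Log2 difference between HIP and WT (x axis) for the 9 genes fitted (y axis), as point with its standard error, and in grey the range with each library left out in turn. Open points mark Slc26a9 and Clca1, which were picked for this contrast and not tested, and the grey ranges of Slc4a2, Slc26a6 and Slc12a2 cross 0.

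Across the 6 libraries the genes fell into unlike patterns, given here as Pearson correlations of log2 values that also carry the group difference. Clca1 followed Cftr (r = 0.93) and Slc26a9 (r = 0.87), and Slc4a4 followed Clca5 (r = 0.84). Ano1 ran opposite to Slc26a9 (r = -0.84) and Slc12a2 opposite to Slc26a6 (r = -0.83), while Ano1 and Slc12a2 went together (r = 0.77). Slc26a9 also went with Slc4a4 and with Clca5 (r = 0.77 for each). All rest on the same 6 libraries and the same scaling. Since Slc26a9 and Clca1 were picked for separating the groups, which by itself gives them a shared pattern, their correlation with each other lends no support.

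The genes most like each member were sought among 9996 tested genes with a mean of at least 5 CPM, by Pearson correlation of log2 values over the 6 libraries. For Slc26a9 these were Usp28 (r = 0.996), Preb, Sf1, Ppm1f and RGD1304587 (r = 0.986), of which Usp28 stood at 43.5 to 50.6 CPM in WT and 56.0 to 67.8 CPM in HIP. For Clca1 they were Tmem135 (r = 0.994), Slc28a3, Mok, Lefty1 and Utp20 (r = 0.974), and for Cftr Hdhd2 (r = 0.982), Itpripl1, Vprbp, Rbm6 and Zmym4 (r = 0.969). Slc28a3, a nucleoside transporter, stood at 17.8 to 22.4 CPM in WT and 28.3 to 30.1 CPM in HIP. Looked up after the values were seen, the genes most like Ano1 included Pir, Pnma2, Mal and Fa2h (r = 0.999 to 0.997), and Clca5 was most like Cfl2, Plagl1, Gprc5b, Aqp5 and Lcn2 (r = 0.996 to 0.994). Aqp5, a water channel of secretory cells, stood at 0, 24.6 and 89.4 CPM across WT26, WT1 and WT4, then at 277, 170.0 and 118 CPM across HIP30, HIP2 and HIP3. These are the highest of 9996 correlations over 6 libraries, and the genes share libraries and scaling. Slc26a9 and Clca1 were picked because they separate the groups. Genes this like them separate the groups too, so the levels of Usp28 and Slc28a3 lend no support.

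Other members of the same families split without a common direction. Of 22 tested, 13 had positive and 9 negative differences with a median of 0.18 (0.07 without HIP3 to 0.27 without WT4), and 0 passed the adjusted test. An unadjusted p under 0.05 was found for 1 positive and 2 negative, against 6.54% of all genes. Slc4a9, an anion exchanger, stood at 4.71, 3.07 and 2.74 CPM across WT26, WT1 and WT4, then at 0.486, 0.916 and 2.02 CPM across HIP30, HIP2 and HIP3. Every HIP library lay below every WT library, as for 4.26% of all genes, and HIP30 lay under the 0.61 CPM set as the minimum for testing. Ano4, an anoctamin, stood at 0.365 to 0.549 CPM in HIP and 0.790 to 4.53 CPM in WT and passed the minimum of 0.61 CPM in 3 libraries only through the WT libraries, so its difference and its place in the count support nothing. Slc12a5, a potassium-chloride cotransporter, had a difference of 2.78 with overlapping groups. Slc4a9 and Slc12a5 had an adjusted p of 0.691 (limma).

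Chloride channels of other families split likewise. Of 19 tested, 10 were positive and 9 negative with a median of 0.00 (-0.15 without WT26 to 0.19 without HIP30), and 0 passed. Only 1 gene, a negative one, had an unadjusted p under 0.05, against 6.54% of all genes. That gene was Clic3, an intracellular chloride channel protein, at 176.5, 136 and 77.2 CPM across WT26, WT1 and WT4 and 21.2, 44.5 and 96.7 CPM across HIP30, HIP2 and HIP3, where HIP3 again lay inside the WT range. Clic5 had a difference of -0.62, with HIP30 lowest and HIP2 next, but HIP3 was the highest library at 179.6 CPM, so the groups overlapped. Lrrc8e, a subunit of the volume-regulated anion channel, had one of -0.43, with 34.9 to 44.8 CPM in HIP against 48.7 to 59.6 CPM in WT. Its HIP libraries all lay below the WT libraries, as for 4.26% of all genes.

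Regulators of the secretory machinery held the WNK kinases, which set the activity of CFTR and of SLC26 and SLC12 transporters. Of 27 tested, 15 were positive and 12 negative with a median of 0.09 (0.04 without WT26 to 0.14 without HIP30), 0 passed, and 2 positive, Wnk4 and Wnk2, had an unadjusted p under 0.05, a share near the 6.54% of all genes. Wnk1, the third WNK kinase on the list, had a difference of 0.04 (standard error 0.21). Wnk4 stood at 12.1, 8.91 and 22.7 CPM across WT26, WT1 and WT4, then at 59.6, 39.0 and 19.4 CPM across HIP30, HIP2 and HIP3, a log2 difference of 1.39, with HIP3 inside the WT range. Wnk2 had a difference of 0.84 and its 3 HIP values of 62.9 to 70.7 CPM enclosed the WT4 value of 63.2 CPM. Ezr, which ties CFTR to the cytoskeleton, had a difference of -0.67, with 392 CPM in HIP30 and 547 in HIP2 against 648 to 1225 CPM in WT. At 854 CPM, HIP3 lay inside the WT range of Ezr, so the groups overlapped.

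Receptors for secretagogues differed in both directions. Of 18 tested, 10 were positive and 8 negative with a median of 0.06 (-0.05 without WT4 to 0.23 without WT1), and 0 passed. Before adjustment, 1 positive had a p under 0.05, against 6.54% of all genes. Sctr, the secretin receptor that drives duct bicarbonate secretion, stood at 0, 7.49 and 49.4 CPM across WT26, WT1 and WT4, then at 194, 117 and 21.3 CPM across HIP30, HIP2 and HIP3, with HIP3 below WT4. The gene with the unadjusted p under 0.05 was Gucy2c, the guanylin receptor, at 0.796 to 1.46 CPM in HIP and at most 0.365 CPM in WT. It passed the minimum of 0.61 CPM in 3 libraries only through the HIP libraries, so its difference and its place in the count support nothing. Vipr1 had a difference of -3.19 (standard error 1.57). The adjusted p was 0.691 for Sctr and Vipr1 (limma).

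Sodium, proton and potassium transporters of duct cells, which hold the driving force, had 7 positive and 12 negative differences of 19 tested with a median of -0.16 (-0.17 without HIP3 to 0.00 without WT26), and 0 passed. Unadjusted, 1 positive gene had a p under 0.05, against 6.54% of all genes. That was Kcnk5, a potassium channel, at 16.4, 14.1 and 19.6 CPM across WT26, WT1 and WT4 and 46.7, 29.4 and 21.1 CPM across HIP30, HIP2 and HIP3. Every HIP library of Kcnk5 lay above every WT library, as for 5.27% of all genes. Scnn1a, a subunit of the epithelial sodium channel, had a difference of -0.63, and Kcnma1, a calcium-gated potassium channel, one of 3.26 with 0 reads in WT26. Carbonic anhydrases and aquaporins had 3 positive and 7 negative differences of 10 tested with a median of -0.58 (-0.28 without WT1, -0.32 without WT26 and -0.20 without HIP30), and 0 passed. Only 1 negative, Car9, had an unadjusted p under 0.05, against 6.54% of all genes. Car9 stood at 34.6 to 64.7 CPM in HIP against 69.0 to 70.7 CPM in WT, an order that 4.26% of all genes share. Aqp5 had a difference of 4.78 and Car8 one of 0.69.

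Cytokine-driven genes of airway and gut epithelium, among which Clca1 is a known target, had 4 positive and 6 negative differences of 10 tested with a median of -0.24 (0.08 without WT26, and -0.05 without HIP2), and 0 passed. Before adjustment, 1 positive and 2 negative had a p under 0.05, against 6.54% of all genes. Il33, an alarmin cytokine, stood at 36.7 to 129 CPM in WT and 248 to 376 CPM in HIP, while Itln1, an intelectin, stood at 1.72 to 3.22 CPM in WT and 0.366 to 0.790 CPM in HIP. Every HIP library lay above every WT library for Il33, as for 5.27% of all genes, and below for Itln1, as for 4.26%. The lowest HIP value of Itln1 lay under the 0.61 CPM set as the minimum for testing. Serpinb2, a protease inhibitor, had a difference of -4.18 with overlapping groups.

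Markers of the other cell types that the dissected tissue could hold differed between the libraries. Duct markers had 5 positive and 7 negative differences of 12 tested with a median of -0.29, intestinal markers 0 positive and 6 negative with a median of -0.52, and markers of fibroblasts, smooth muscle and interstitial cells 0 positive and 14 negative with a median of -1.07. Acinar markers had 6 positive and 1 negative with a median of 0.69, islet markers 6 and 4 with 0.76, macrophage and leukocyte markers 7 and 1 with 0.73, and cell division markers 0 and 10 with -3.81. Single libraries moved these medians by over 1.5 times: without WT26 the duct, intestinal, acinar, macrophage and islet medians were -0.03, -0.20, 0.32, 0.14 and -0.67, so that the islet sign turned. Without WT4 the duct, acinar, macrophage and islet medians were -0.46, 1.26, 1.33 and 3.63, and without WT1 the acinar median was 0.45. Without HIP30 the fibroblast, acinar, islet and division medians were -0.59, 1.85, 1.93 and -1.15, without HIP2 the islet median was 1.44, and without HIP3 the fibroblast, acinar, islet and division medians were -1.69, 0.15, 1.78 and -5.72. None of these markers passed limma's adjusted test, and an unadjusted p under 0.05 was found for 3 positive duct, 2 negative intestinal, 5 negative fibroblast, smooth muscle or interstitial, 1 positive acinar, 1 positive islet, 1 positive macrophage and 2 negative division markers. Beside these counts, the share over all genes was 6.54%. The summed fibroblast, smooth muscle and interstitial level ran from 1733 to 2502 CPM in WT and was 518 CPM in HIP30, 966 in HIP2 and 2203 in HIP3. That of macrophages and leukocytes was 2419 and 2458 CPM in HIP30 and HIP2 against 646 CPM in HIP3 and 430.4 to 768 CPM in WT. Mpeg1 alone made up 1929 and 1945 CPM of the sums in HIP30 and HIP2. In those libraries Ptprc, Csf1r, Lyz2 and Cd68 lay inside their WT ranges. Itgam lay above its WT range there, and Cd14 lay below its WT range in HIP30. HIP3 lay inside the WT range of both sums and of Ano1, Slc4a4, Sctr and Wnk4, and the part of cell makeup in these values was not tested.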

How the data were processed

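RNA of laser-captured pancreatic duct glands was sequenced in 6 libraries, and groups were taken from the genotype labels. For each library the authors deposited gene symbols and their log2 values. The submitters' processing notes name STAR, HTSeq, edgeR, limma and build rn5, with no version. Strandedness was not given in the sources used here. A very-low-input library kit was used, per the labels' protocols.

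The deposited log2 values are CPM with a small prior, as a gene without reads stands at -6.04, and whole reads were recovered for 100% of values in each library within 0.1 reads. TMM factors were computed from these reads trimming 30% of log ratios and 5% of levels. The main test used limma (version 3.58.1, R 4.3.3) and its trend option on log2(CPM + 0.1215), without covariates, and fold changes on this scale understate those of low genes. A gene was tested where 3 libraries reached 0.61 CPM, or 10 reads of a median library, and all libraries together 15 reads. The Benjamini-Hochberg threshold was 0.05. Symbols on several rows (4 rows) were left out. One read was worth 0.0596 to 0.0614 CPM. The steps were tested on simulated data.

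The members and gene lists were chosen with earlier results of these data known. Named genes are the 10 members, up to 3 genes of a list with the lowest unadjusted p, and the 5 genes most like Cftr, Slc26a9 and Clca1; the rule also allows markers of other cell types that move with a member. The text prints part of them, and some are not reported here. Alternatives covered scaling, pseudocount, filter, limma-voom with and without quality weights, no trend, a term for the title numbers 26 and 30 against 1 to 4, and libraries left out. Leaving out WT26 with HIP30, or WT4 with HIP3, was added after seeing the data. Motifs were searched in RefSeq's promoter table for GRCr8. Figures were drawn with matplotlib 3.10.9.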

Additional observations from a re-analysis of the deposited data

How the results depend on the processing

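None of the 7 tested genes reached an adjusted p under 0.05 in limma in any of 18 alternatives, where the lowest adjusted p was 0.0877, and 0 of all genes passed in the main test and with each library left out. The number of all genes with an unadjusted p under 0.05, 792 in the main test, was 2387 with quality weights, 227 to 1780 with each library left out, 142 without WT26 and HIP30 and 2360 without WT4 and HIP3. The cause was not tested. Clca5, Cftr, Ano1 and Slc4a4 kept the sign of their differences in all 18 alternatives, as did Slc26a9 and Clca1. All alternatives use the same 6 libraries or part of them, so a kept sign is no independent support. Slc26a9 and Clca1 were also picked because they separate the groups, so their stable sign lends no support. Slc26a6 turned to 0.106 without WT4 and HIP3 and ran from -0.28 to 0.05 with each library left out. Slc4a2 turned to -0.046 without WT26 and HIP30 and ran from -0.10 to 0.11. Slc12a2 turned to 0.078 without WT26 and HIP30 and ran from -0.46 to 0.12. The ratio of Slc26a3 to Slc26a6, whose values the added 2 reads set in 4 libraries, ran from -1.12 to 0.98 and is not read. No paired analysis was possible because the replicate numbers of the groups have none in common. Depth limits Slc26a3 most, which had 0 to 24 reads.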
